A study of Mus musculus with 2 samples.

Results

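The alcohol, aldehyde and aldo-keto oxidoreductases are the enzymes with which liver interconverts alcohols, aldehydes, ketones and acids. The genes described here are those whose symbol starts with Adh, Aldh, Akr or Aox followed by a digit, without Akr1d1, which gave 47 genes among the 36771 rows of the table. Each of the 47 symbols had a single row, and 33 had at least 1 FPKM (fragments per length of transcript and per depth of library) in at least 1 library. These 33 are called measured below. The others comprised 11 genes under 1 FPKM in both libraries and 3 that were listed at 0 in both.

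The RNA came from livers of 5-month-old BALB/c mice, sequenced as 1 library labelled WT and 1 labelled SRSF2-KO, genotype SRSF2-/-, in which the design text places the deletion in the liver alone. The sources used here do not give the driver of the deletion, the deleted part of the gene, the sex of the animals or whether a library pooled animals. With 1 library per genotype there is no replicate check, no difference was tested, and the values compare these libraries and not the genotypes. Srsf2, the splicing factor gene that was targeted, went against its label: it was listed at 45.3 FPKM in the SRSF2-KO-labelled library and at 38.2 FPKM in the WT-labelled one. Estimated depth was 24400000 and 19400000 fragments, respectively. The deposited FPKM summed to 523254 and 666262. Of 12 hepatocyte markers 11 were measured, all of them in both libraries, but Alb, which codes for albumin, was listed at 0 in both, so a value of 0 in this table need not mean that a transcript was missing.

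Alcohol dehydrogenases (ADH) oxidise ethanol, retinol and other alcohols to aldehydes with NAD. Aldehyde dehydrogenases (ALDH) carry aldehydes on to acids, from acetaldehyde and retinaldehyde to the semialdehydes of amino acid breakdown. Aldo-keto reductases (AKR) run mostly in the reducing direction with NADPH and act on sugars, lipid aldehydes and steroids, and aldehyde oxidases (AOX) are molybdenum and flavin enzymes that use oxygen. Hepatocytes are rich in all of these enzymes, and the ethanol route through cytosolic ADH and mitochondrial ALDH is the best known.

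The promoters of 4 members are shown first because they hold the lowest ratios and a contrast between near copies. Aldh1a1, Akr1c14 and Akr1c19 were the measured members at least 2-fold lower in the SRSF2-KO-labelled library. Aldh1a7, the neighbour and near copy of Aldh1a1, was level between the libraries in the deposited scaling. Each window runs from 250 bases before to 50 bases after a transcript start in RefSeq, in the build GRCm38.p6, which is not the mm9 build of the deposited table. Capitals mark matches, on either strand, to 4 motifs. They were TGACNNNGC, the core of the antioxidant response element bound by NRF2, and TATAAA, the TATA box near which transcription often starts. The others were the CCAAT box, searched as its name spells it, and the half-site of the liver factor HNF1, searched as GTTAAT.
Aldh1a1, chr19:20601718-20602017, plus strand: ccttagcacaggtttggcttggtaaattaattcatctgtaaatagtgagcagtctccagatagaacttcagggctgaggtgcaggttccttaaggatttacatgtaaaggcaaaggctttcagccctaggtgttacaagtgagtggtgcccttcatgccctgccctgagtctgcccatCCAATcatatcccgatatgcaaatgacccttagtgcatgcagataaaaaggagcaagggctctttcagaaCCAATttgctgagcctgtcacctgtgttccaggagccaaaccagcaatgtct
Aldh1a7, chr19:20727507-20727806, minus strand: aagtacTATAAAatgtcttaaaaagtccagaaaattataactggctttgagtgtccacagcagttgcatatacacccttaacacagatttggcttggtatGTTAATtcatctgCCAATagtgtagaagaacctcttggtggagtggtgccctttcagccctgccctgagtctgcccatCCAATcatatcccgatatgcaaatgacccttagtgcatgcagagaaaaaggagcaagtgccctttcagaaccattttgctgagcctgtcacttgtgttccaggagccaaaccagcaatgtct
Akr1c14, chr13:4059341-4059640, plus strand: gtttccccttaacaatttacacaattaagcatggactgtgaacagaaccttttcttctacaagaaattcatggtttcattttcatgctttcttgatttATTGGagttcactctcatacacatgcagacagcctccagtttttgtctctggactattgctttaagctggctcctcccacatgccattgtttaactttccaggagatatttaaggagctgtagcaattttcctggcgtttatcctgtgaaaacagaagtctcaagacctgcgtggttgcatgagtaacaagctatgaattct
Akr1c19, chr13:4233490-4233789, plus strand: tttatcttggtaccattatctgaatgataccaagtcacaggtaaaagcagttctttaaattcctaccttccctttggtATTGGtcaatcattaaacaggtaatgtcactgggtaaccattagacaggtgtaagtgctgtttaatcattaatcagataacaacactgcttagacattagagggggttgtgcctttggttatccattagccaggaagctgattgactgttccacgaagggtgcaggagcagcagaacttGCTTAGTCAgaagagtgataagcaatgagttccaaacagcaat

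The Aldh1a1 and Aldh1a7 windows were 70.2% identical in a global alignment and both held a CCAAT box 72 bases before the start. A further CCAAT box lay 2 bases before the start of Aldh1a1, and Aldh1a7 had further matches at 137 (CCAAT box), 150 (HNF1 half-site) and 244 bases (TATA box) before its start. The Aldh1a1 window shown is the downstream one of 2 starts in the table, and the other, 50.6% identical to Aldh1a7, held none of these motifs. Akr1c14 and Akr1c19 each held a CCAAT box on the opposite strand, with its first base 152 and 172 bases before the start. The antioxidant response element core was found in the Akr1c19 window at base 8 after the start. Across all 32851 windows of the table, 12.4% held that core, 13.6% the TATA box, 37.4% the CCAAT box and 7.1% the HNF1 half-site. Of 28 measured members with a window, 2 held the antioxidant response element core (Akr1c19 and Aldh9a1), 5 the TATA box, 18 the CCAAT box and 2 the HNF1 half-site. No 2 matches shown in capitals overlap. These matches describe letters and not bound sites, and all motifs but the antioxidant response element core were chosen after the values were seen.

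Most measured members were listed lower in the SRSF2-KO-labelled library. Ratios on the log2 scale were taken as log2((SRSF2-KO + 1)/(WT + 1)) from FPKM. Values under 0 thus mean a lower level in the SRSF2-KO-labelled library, and the added 1 shrinks the differences of weakly expressed genes. Of the 33 measured members, 27 had a ratio below 0 and 6 above, or 81.8% below, where 53.9% of all 11428 rows with at least 1 FPKM lay below 0. The median was -0.52 over the members and -0.04 over those rows. As 3 members (Akr1c14, Aldh1a1 and Akr1c19) were at least 2-fold lower and 0 at least 2-fold higher, the shares were 9.09% and 0%, against 3.22% and 5.49% of all rows.

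Most measured members were abundant, and most abundant rows of the table lay lower in the SRSF2-KO-labelled library. Of 1427 rows with at least 50 FPKM in a library, 80.4% lay below 0 with a median of -0.35, and 9.46% were at least 2-fold lower. Of the 22 members in that range, a limit chosen after the values were seen, 21 lay below 0 (95.5%), with a median of -0.68 and 3 at least 2-fold lower (13.6%), while 0 were at least 2-fold higher beside 4.2% of those rows. The 11 measured members under 50 FPKM were split, 6 below and 5 above 0, with a median of -0.09. The direction of small differences also depended on scaling. Rescaling both libraries to the same total (TPM) moved the SRSF2-KO values by 0.35 log2 units against WT. It left the member median at -0.16 beside 0.28 over all rows, with 22 of 35 members below 0, 2 at least 2-fold lower and 2 at least 2-fold higher, where 24.3% of all rows lay below 0, 1.91% were at least 2-fold lower and 10.8% at least 2-fold higher.

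**Figure D1:**
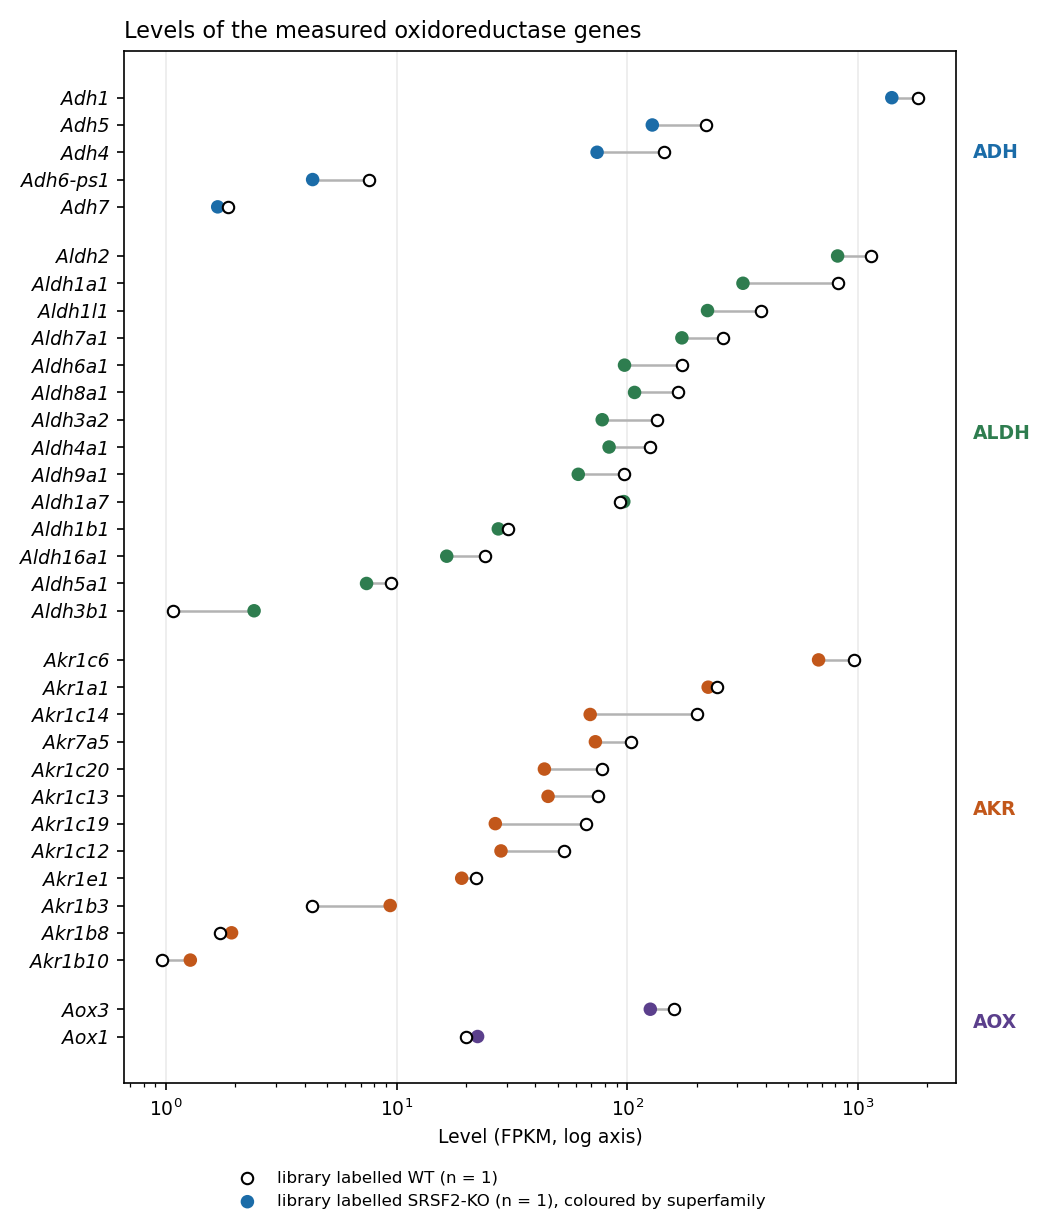
FPKM (log axis) of the 33 measured members in the library labelled WT (open circles) and in that labelled SRSF2-KO (filled circles, coloured by superfamily), n = 1 each, ordered by WT level. Filled circles lie to the left for 27 genes, and the widest gaps toward lower values are those of Akr1c14, Aldh1a1 and Akr1c19.

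The members summed to 5096 FPKM in the SRSF2-KO-labelled library and 7664 FPKM in the WT-labelled one, or 0.974% and 1.15% of all deposited FPKM. A single gene made up most of each of 3 superfamilies. Adh1 held 87.1% and 83.1% of the summed ADH level and Aox3 84.9% and 88.8% of the AOX level, in the SRSF2-KO-labelled library and the WT-labelled one. Akr1c6 held 55.4% and 53.1% of the AKR level. Aldh2 and Aldh1a1 led the ALDH genes, but their shares moved apart: Aldh2 held 38.7% against 33.1%, and Aldh1a1 15.1% against 23.8%. Summed levels were 1615 against 2205 FPKM for ADH, 2113 against 3466 FPKM for ALDH, 1221 against 1814 FPKM for AKR, and 148.6 against 179.6 FPKM for AOX.

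All 5 measured alcohol dehydrogenase genes were below 0 in their log2 ratio, with a median of -0.69, and 4 of them after TPM rescaling. Adh1, the class I enzyme that oxidises ethanol and retinol, was listed at 1406 FPKM in the SRSF2-KO-labelled library and 1831 FPKM in the WT-labelled one. It ranked 46 and 45 among all rows, and its FPKM ratio was 0.768, where counting error alone allowed 0.758 to 0.778 (95%, exact Clopper-Pearson). Such intervals rest on estimated reads and cover counting error only. The log2 ratio of Adh1 was -0.38 as deposited and -0.03 after TPM rescaling, which left it nearly level. Adh5, the class III enzyme that oxidises the glutathione adduct of formaldehyde, stood at 129 against 219 FPKM, a ratio of 0.586 (0.564 to 0.609). Adh4, the class II enzyme, stood at 74.1 against 145 FPKM. Its log2 ratio of -0.95 lay just short of the 2-fold limit.

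Adh6-ps1, a transcribed pseudogene of the cluster, was at 4.33 against 7.6 FPKM. Adh7, the class IV enzyme best known from stomach, was at 1.68 against 1.85 FPKM with an interval of 0.70 to 1.17 for the ratio, so a difference was not detectable at this depth. Its sign turned positive under all 3 rescalings. Adh6a was listed at 0.0370 against 0.0465 FPKM and Adh6b at 0.0264 FPKM against 0, values worth 1 or 2 reads. Within the ADH genes the abundant Adh1 had a smaller difference than Adh4 and Adh5, whose intervals did not overlap that of Adh1.

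Other steps of ethanol and acetate use are given for context from a list of 6 genes, of which 5 were measured. Of these, 4 lay below 0 and 2 were at least 2-fold lower (1 after TPM rescaling), with a median of -0.87. Among all rows with at least 1 FPKM, 53.9% lay below 0 and 3.22% were at least 2-fold lower. Cyp2e1, the microsomal ethanol oxidase, had a log2 ratio of -1.40 and Acss3, a mitochondrial acyl-CoA synthetase, one of -1.08 (2.54 against 6.49 FPKM). Catalase (Cat) was at 1221 against 1743 FPKM. Acss2, which turns acetate into acetyl-CoA in the cytosol, was higher in the SRSF2-KO-labelled library, at 66.7 against 46.2 FPKM.

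Both mitochondrial acetaldehyde dehydrogenases were listed lower in the SRSF2-KO-labelled library as deposited. Aldh2, the main acetaldehyde dehydrogenase of liver, was listed at 818 FPKM in the SRSF2-KO-labelled library and 1146 FPKM in the WT-labelled one, with rank 70 in both and a ratio of 0.714 (0.697 to 0.732). Aldh1b1, its mitochondrial relative, was at 27.6 against 30.6 FPKM, with an interval of 0.815 to 1.001 that just reached equality. The sign of Aldh1b1 turned positive under all 3 rescalings.

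The pair of cytosolic ALDH1A genes that were measured parted. Aldh1a1, which oxidises retinaldehyde to retinoic acid, was at 318 FPKM in the SRSF2-KO-labelled library and 825 FPKM in the WT-labelled one. This was a ratio of 0.385 (0.378 to 0.393), and its rank among all rows was 194 against 98. Aldh1a7, a rodent paralog next to it on chromosome 19, stood at 96.8 against 93.5 FPKM, with a ratio of 1.03 (0.99 to 1.08). The log2 ratios were -1.37 and 0.05, a gap of 1.42. After TPM rescaling they were -1.03 and 0.40, so Aldh1a7 then lay above equality. The coding sequences of the pair are 91.6% identical, and 13.8% of the distinct 31-base words in Aldh1a7 transcripts also occur in Aldh1a1 (5.7% the other way round), so most but not all positions can tell their reads apart. Aldh1a2 (0.211 against 0.0793 FPKM) and Aldh1a3 (0.354 against 0.137 FPKM), which make retinoic acid mainly outside hepatocytes, were near the detection limit, with intervals on both sides of 1. Taking the longest transcript instead of the median length gave Aldh1a3 an interval of 1.13 to 5.96.

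Among 26 genes of retinoid binding, storage and turnover, 23 were measured and 16 lay below 0. Of the 23, 1 was at least 2-fold lower (4.35%) and 3 at least 2-fold higher (13%), beside 3.22% and 5.49% of all rows. The median was -0.17, and 0.15 after TPM rescaling. Retsat, the retinol saturase gene, was at 38.7 against 115 FPKM and Rdh16, a microsomal retinol dehydrogenase gene, at 9.67 against 19.97 FPKM. At the other end, Dhrs9, a retinol dehydrogenase gene, was at 3.95 against 0.0789 FPKM, and so was measured only through the SRSF2-KO-labelled library.

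All 6 measured aldehyde dehydrogenases of amino acid and amine breakdown lay between -0.83 and -0.32, with a median of -0.60, and stayed below 0 after TPM rescaling. That rescaling also brought Aldh18a1 past the limit, in the SRSF2-KO-labelled library alone, so that 7 genes were measured, with Aldh18a1 above 0. Aldh6a1, the methylmalonate semialdehyde dehydrogenase of valine breakdown, was at 97.4 FPKM in the SRSF2-KO-labelled library and 174 FPKM in the WT-labelled one. Aldh9a1, which serves carnitine synthesis, was at 61.4 against 97.2 FPKM, and Aldh8a1, of the kynurenine branch of tryptophan breakdown, at 108 against 165 FPKM. Aldh7a1, the aminoadipic semialdehyde dehydrogenase of lysine breakdown, was at 173 against 259 FPKM, and Aldh4a1, which makes glutamate in proline breakdown, at 83.5 against 126 FPKM. Aldh5a1, which ends the GABA route, was lowest in level, at 7.41 against 9.50 FPKM. These ratios were close to one another as deposited, from 0.562 for Aldh6a1 to 0.780 for Aldh5a1, and every interval lay below 1. After TPM rescaling the log2 ratio of Aldh5a1 was -0.009, so that gene was then nearly level. Exons of other genes overlap some of them in the GENCODE M21 annotation: Gm21969 covers 32.5% of the exonic bases of Aldh4a1 on the same strand, and Bbof1 18.6% of those of Aldh6a1 on the opposite strand, so part of their reads cannot be assigned with certainty.

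Aldh18a1, which starts proline synthesis and thus runs opposite to Aldh4a1, was below the limit at 0.872 against 0.438 FPKM, with an interval of 0.51 to 12.4 for the ratio. Its interval was 1.29 to 3.24 when the longest transcript was taken instead of the median length. The neighbours of these enzymes in the same pathways also lay mostly below 0. Of 20 listed genes 19 were measured, with a median of -0.69. Of the 19, 18 lay below 0 (94.7%, 16 genes after TPM rescaling) and 2 were at least 2-fold lower (10.5%). The shares were 53.9% and 3.22% over all rows with at least 1 FPKM. Over rows with at least 50 FPKM, a level that most of these neighbours reach, they were 80.4% and 9.46%. Bbox1, the last enzyme of carnitine synthesis, was at 26.6 against 62.7 FPKM and Prodh2, a hydroxyproline dehydrogenase gene, at 45.4 against 97.7 FPKM. Chdh, the choline dehydrogenase gene, was nearly level at 31.9 against 33.7 FPKM. Acmsd, which acts at a branch of tryptophan breakdown, was the exception above 0, at 10.9 against 6.17 FPKM.

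The remaining aldehyde dehydrogenases serve folate and lipid aldehydes. Aldh1l1, the cytosolic formyltetrahydrofolate dehydrogenase, was at 223 against 379 FPKM, a ratio of 0.588 (0.576 to 0.601). Its mitochondrial counterpart Aldh1l2 was listed at 0.0811 against 0.103 FPKM. Aldh3a2, the fatty aldehyde dehydrogenase, was at 77.98 against 135 FPKM. Aldh16a1, a member with little known function, was at 16.5 against 24.2 FPKM.

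Aldh3b1, which acts on lipid-derived aldehydes, went the other way at 2.41 against 1.08 FPKM, a ratio of 2.24 (1.54 to 3.42) from 103 and 36 estimated reads. With the pseudocount its log2 ratio was 0.72. Aldh3b1 shares 15.2% of its 31-base words with other genes, among them Aldh3b2, which was listed at 0 in both libraries. Aldh3a1, the corneal enzyme, was at 0.0251 against 0.0640 FPKM. Folate one-carbon enzymes around Aldh1l1 had a median of -0.14 over 12 measured of 14 genes, with 8 below 0, or 0.18 after TPM rescaling. Ftcd, of histidine breakdown, was at 69.4 against 119.5 FPKM and Mthfd1 at 44.8 against 62.8 FPKM. Mthfd1l, of the mitochondrial folate pathway, stood at 1.23 against 0.352 FPKM, and so was measured only through the SRSF2-KO-labelled library.

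**Figure D2:**
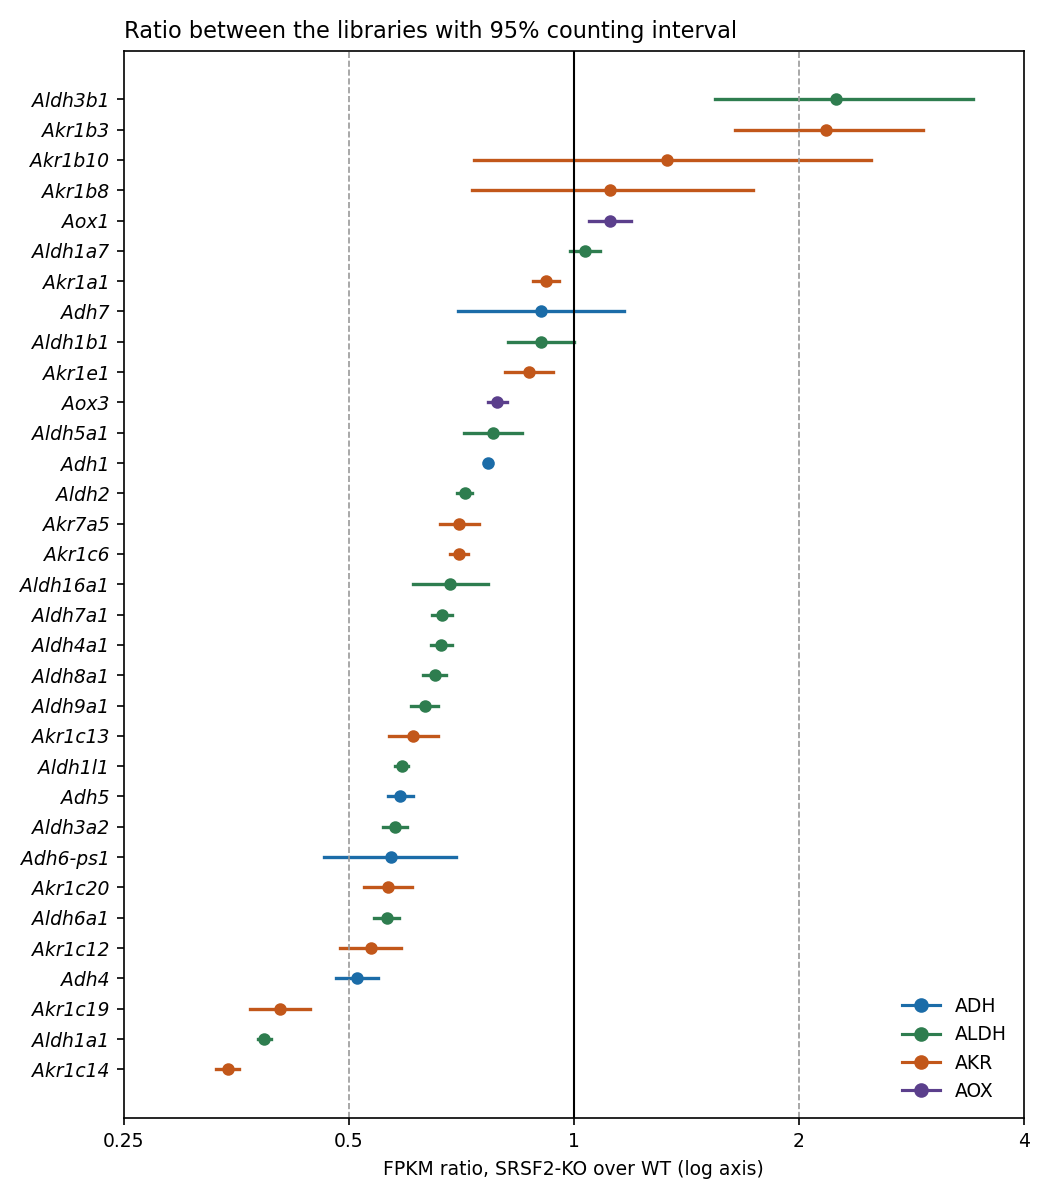
FPKM ratio of the SRSF2-KO-labelled library over the WT-labelled one (log axis, n = 1 each) for the 33 measured members, sorted, with 95% exact intervals for counting error only. The solid line marks equality and dashed lines mark 2-fold; 25 intervals lie wholly below 1, 3 wholly above (Aldh3b1, Akr1b3 and Aox1) and 5 on both sides.

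The AKR1C genes code for hydroxysteroid dehydrogenases, which act on steroid hormones, bile acids and xenobiotic ketones. All 6 measured genes lay below 0, with a median of -0.85 and 2 at least 2-fold lower (33.3%), or 1 after TPM rescaling. Each of the 6 had at least 50 FPKM in the WT-labelled library. Among all rows with at least 50 FPKM in a library, 80.4% lay below 0, with a median of -0.35, and 9.46% were at least 2-fold lower. Akr1c6, the type 5 17-beta-hydroxysteroid dehydrogenase and by far the most abundant, was at 677 FPKM in the SRSF2-KO-labelled library and 963 FPKM in the WT-labelled one, a ratio of 0.702 (0.683 to 0.723). Akr1c14, a 3-alpha-hydroxysteroid dehydrogenase, was at 69.2 against 201 FPKM, a ratio of 0.344 (0.332 to 0.357) and the lowest among all measured members. Its share of the AKR1C level was 7.77% against 14%, while that of Akr1c6 was 76% against 67.1%.

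Akr1c19, which oxidises alcohols and steroids with NAD, was at 26.8 against 66.3 FPKM, a ratio of 0.404 (0.368 to 0.443). After TPM rescaling its log2 ratio was -0.94, short of 2-fold, whereas Akr1c14 (-1.18) and Aldh1a1 (-1.03) remained past it. Akr1c20 stood at 43.8 against 77.6 FPKM. Akr1c12 was at 28.4 against 53.1 FPKM and Akr1c13 at 45.4 against 74.4 FPKM. This last pair has coding sequences 96.2% identical and shares 39.2% of the 31-base words of Akr1c12 (33.7% of those of Akr1c13), so the split of reads between them is uncertain.

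The AKR1C genes under 1 FPKM had values in either direction. Akr1c18, the 20-alpha-hydroxysteroid dehydrogenase that inactivates progesterone, was listed at 0.399 against 0.0629 FPKM, from 9 and 1 estimated reads, with an interval of 0.99 to 314 for the ratio. The longest transcript gave 1.13 to 345. Akr1c21 was at 0 against 0.118 FPKM and Akr1cl was listed at 0 in both. In RefSeq the AKR1C genes apart from Akr1cl lie in 1 cluster on chromosome 13, in the order Akr1c14, Akr1c18, Akr1c13, Akr1c19, Akr1c12, Akr1c6, Akr1c20 and Akr1c21, followed by Akr1e1 of another subfamily. The log2 ratios along it were -1.53, 0.40, -0.70, -1.28, -0.88, -0.51, -0.81, -0.16 and -0.19, so Akr1c14 and Akr1c19 were not next to each other.

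**Figure D3:**
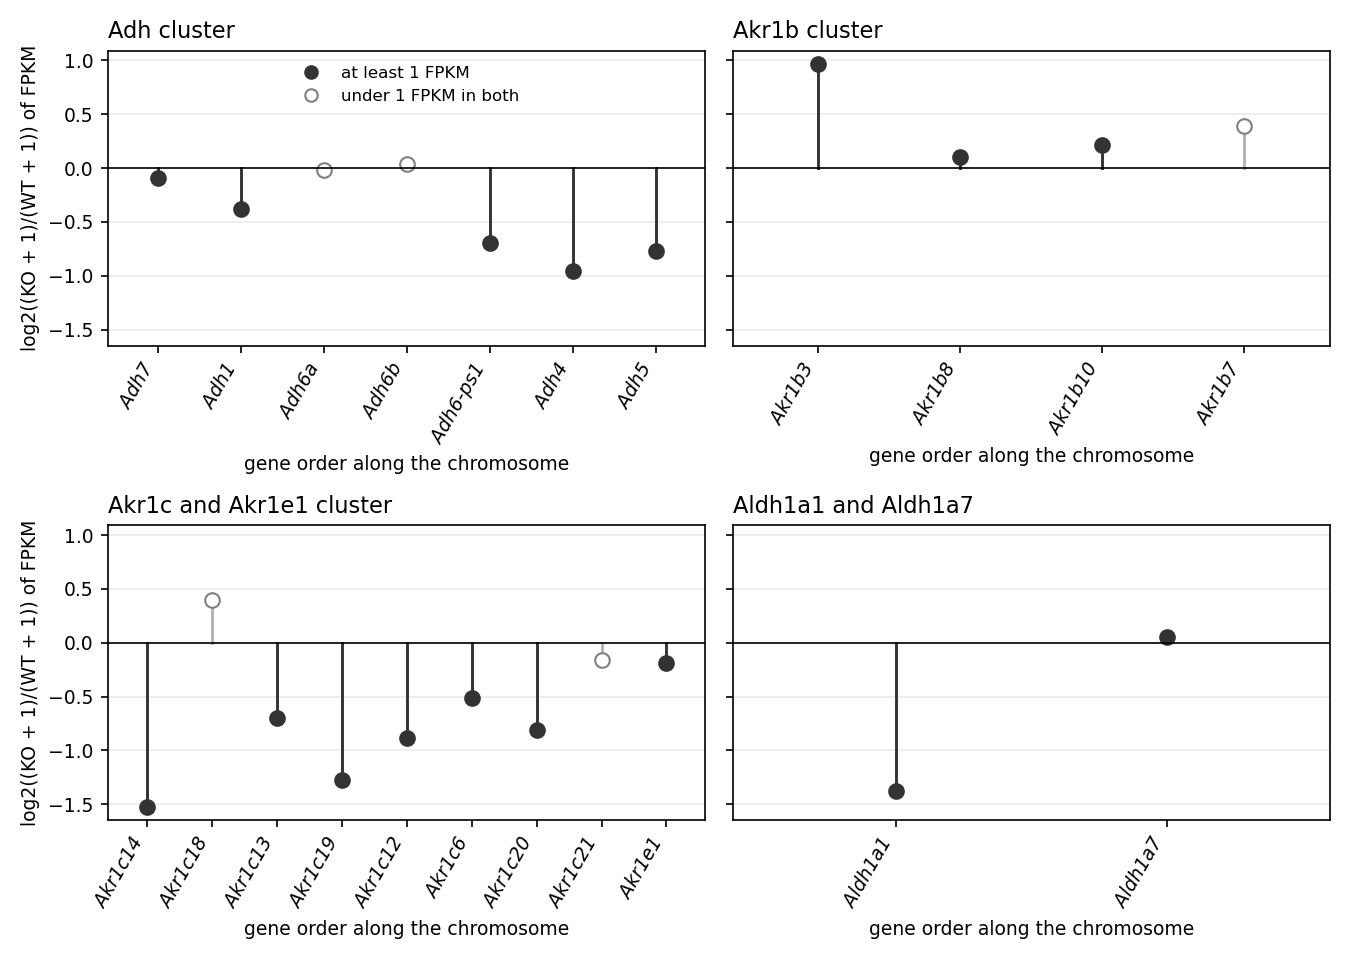
Log2 ratio (library labelled SRSF2-KO over the WT-labelled one, pseudocount of 1 FPKM, n = 1 each) of genes in 4 chromosomal clusters, in RefSeq gene order; spacing is not to scale. Filled points have at least 1 FPKM in a library and open points less; filled points of the Adh and Akr1c clusters lie below 0, those of the Akr1b cluster above 0, and Aldh1a1 and Aldh1a7 lie apart.

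The cluster order for the ADH genes on chromosome 3 was Adh7, Adh1, Adh6a, Adh6b, Adh6-ps1, Adh4 and Adh5, with the lower ratios of Adh6-ps1, Adh4 and Adh5 side by side at one end. Across all 164 pairs of measured genes within a superfamily that have coding sequences, 19 pairs were at least 70% identical. Their median gap in log2 ratio was 0.46, beside 0.53 for the less alike pairs. The pairs share genes and libraries and carry no test.

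The AKR1B genes, aldose reductases that turn glucose to sorbitol and reduce lipid aldehydes, were the 1 subfamily of at least 3 measured genes whose members all lay above 0. Of the 3, Akr1b10 reached 1 FPKM only in the SRSF2-KO-labelled library, so its inclusion depends on its higher value there. The AKR1B median of 0.22 is the log2 ratio of Akr1b10 itself. Akr1b3, the aldose reductase of the polyol pathway, was at 9.39 FPKM in the SRSF2-KO-labelled library and 4.32 FPKM in the WT-labelled one. Its ratio of 2.17 (1.64 to 2.93) came from 184 and 67 estimated reads, and its log2 ratio with the pseudocount was 0.97, just short of the 2-fold limit. The relatives Akr1b8 (1.93 against 1.72 FPKM) and Akr1b10 (1.28 against 0.959 FPKM) had intervals on both sides of 1, from 0.73 to 1.74 and from 0.74 to 2.50, so no difference was detectable at this depth. Akr1b7 was at 0.679 against 0.283 FPKM, from 18 and 6 estimated reads. The 3 measured genes summed to 12.6 against 6.999 FPKM, a small part of the AKR level.

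All 3 general aldehyde and ketone reductases lay below 0 as deposited and 1 of them after TPM rescaling. Akr1a1, the aldehyde reductase that also makes an ascorbate precursor in mice, was at 225 against 245 FPKM (0.918, interval 0.881 to 0.957). Akr1e1, which reduces anhydrofructose, was at 19.2 against 22.0 FPKM. Akr7a5, which acts on succinic semialdehyde and aflatoxin dialdehyde, was at 72.9 against 104 FPKM. The sign of Akr1a1 turned positive under all 3 rescalings and that of Akr1e1 under 2 of them. Among 18 other carbonyl reductases and polyol enzymes, 17 were measured and 12 lay below 0, with a median of -0.46. Of the 17, 3 were at least 2-fold lower (17.6%) and 2 at least 2-fold higher (11.8%), beside 3.22% and 5.49% of all rows. Hsd11b1, which regenerates active glucocorticoid, was at 98.97 against 469 FPKM and Dcxr, the xylulose reductase gene, at 51.5 against 110 FPKM. Cbr3, a carbonyl reductase gene, was at 5.41 against 0.434 FPKM and Ptgr1, a prostaglandin and alkenal reductase gene, at 2.56 against 0.642 FPKM. Both reached 1 FPKM only in the SRSF2-KO-labelled library, so their inclusion depends on their higher values there.

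Of the aldehyde oxidases, Aox3, the main form of mouse liver, was at 126 FPKM in the SRSF2-KO-labelled library and 159.5 FPKM in the WT-labelled one, a ratio of 0.790 (0.768 to 0.814). Aox1 was at 22.5 against 20.1 FPKM, a ratio of 1.12 (1.05 to 1.19), so the neighbours on chromosome 1 lay on either side of equality. The log2 ratio of Aox3 became 0.01 after TPM rescaling. Aox3l1 was listed at 0.00884 FPKM against 0 and Aox4 at 0 in both. The other molybdenum enzymes and genes of the cofactor were all 9 measured, 7 below 0 with a median of -0.47 and 0 at least 2-fold apart. Mocs2 and Mosc2 were lowest in ratio, at 44.7 against 68.3 and 196 against 293 FPKM. Mocos, which adds the sulphur that aldehyde oxidases need, was highest at 19.3 against 15.3 FPKM, and Mocs3 was at 2.97 against 2.79 FPKM.

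**Figure D4:**
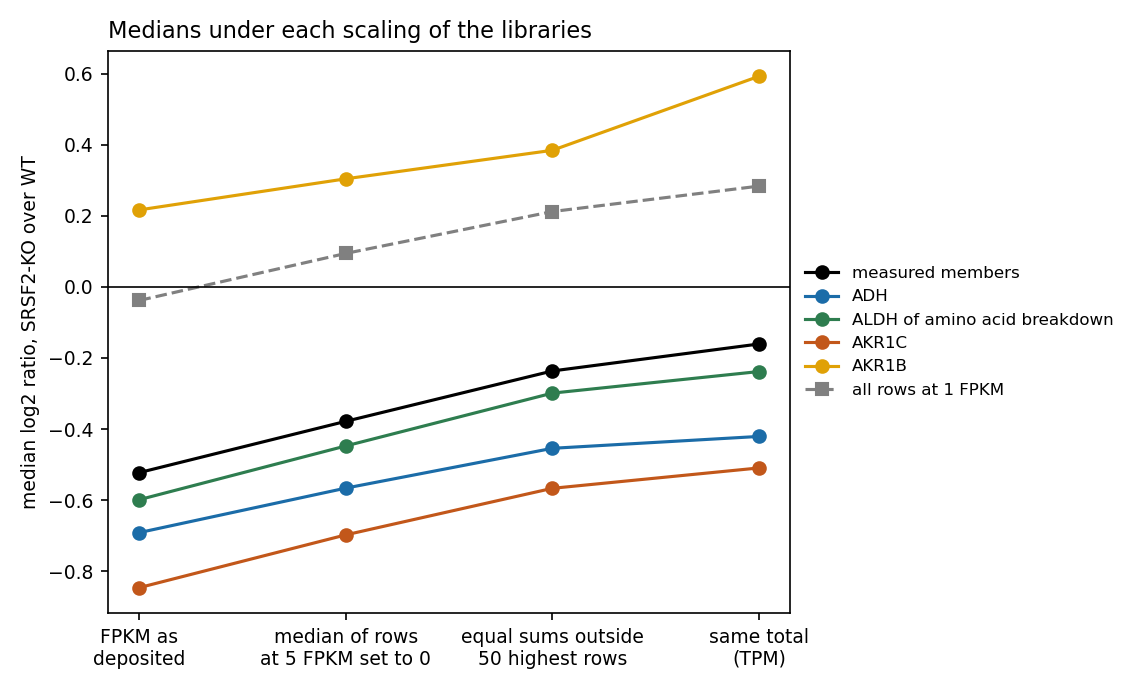
Median log2 ratio (library labelled SRSF2-KO over the WT-labelled one) of the measured members, of 4 subfamilies and of all rows with at least 1 FPKM, under the deposited scaling and 3 rescalings. The members' median stays below that of all rows, from -0.52 beside -0.04 as deposited to -0.16 beside 0.28 as TPM, and AKR1B stays above it. As deposited, Akr1b10 counts among the AKR1B genes only through the SRSF2-KO-labelled library. The genes reaching 1 FPKM change with the scaling: AKR1B has 3 as deposited and 4 as TPM. The added gene, Akr1b7, also counts only through the SRSF2-KO-labelled library, where it is higher.

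Markers of cell types differed between the same libraries. All 11 measured hepatocyte markers lay below 0 (7 after TPM rescaling), with a median of -0.40 and a summed level of 26125 FPKM in the SRSF2-KO-labelled library against 35451 FPKM in the WT-labelled one. Their lowest ratios were those of Tdo2 (-1.26) and Tat (-1.21) and their highest those of Ahsg (-0.14) and Apob (-0.10). Of 13 stellate cell and fibroblast markers, 12 lay above 0 (also 12 after TPM rescaling), with summed levels of 250.4 against 121 FPKM. Col1a1, which reached 1 FPKM only in the SRSF2-KO-labelled library, was highest at a log2 ratio of 2.91 and Lrat lowest at -0.60. Of 8 bile duct markers 4 were measured, 3 of them at least 2-fold higher, and the sum of 278 against 25.8 FPKM was mostly Spp1. The other measured one, Krt19, lay below 0, at a log2 ratio of -0.56 (0.426 against 1.10 FPKM). Endothelial markers lay below 0 in 10 of 11 genes (9 after TPM rescaling), with sums of 85.3 against 138 FPKM, and macrophage markers in 7 of 10 (5 after TPM rescaling), with sums of 89.6 against 134.5 FPKM. The macrophage list was split, with 3 genes at least 2-fold lower, among them Timd4 (log2 ratio -1.47) and Cd5l (-1.14). The 2 at least 2-fold higher were Trem2 (2.16) and Gpnmb (2.11). Trem2 and Gpnmb reached 1 FPKM only in the SRSF2-KO-labelled library, and Timd4 only in the WT-labelled one. Over all rows with at least 1 FPKM, 3.22% were at least 2-fold lower and 5.49% at least 2-fold higher. The part of these cell types in the lower levels of the abundant members and in the higher levels of Akr1b3 and Aldh3b1 was not tested. Nor was it tested for the members near the detection limit, whose values went in either direction. In bulk RNA, fewer cells of a type and less RNA per cell cannot be told apart.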

How the data were processed

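The authors deposited 1 table of FPKM with a value per gene row for each of the 2 libraries, in columns matched by name. The submitters' processing notes name Bowtie 0.12.2 and mm9; the FPKM program, annotation, strandedness and filters: not given in the sources used here. Symbols were used as given. FPKM are already scaled for depth and length by the authors. The measure was log2((SRSF2-KO + 1)/(WT + 1)) among rows reaching 1 FPKM in either library, with counts past 2-fold.

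No test was run, since each genotype has 1 library. All measured members were named, and of each context or marker list the 2 highest and 2 lowest ratios, apart from a few results that are not reported here. The members and lists were chosen with earlier results of these data known.

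Depth was estimated as the value, between 15000000 and 30000000, at which low FPKM of genes with 1 GENCODE M21 transcript of 1000 to 8000 bases became whole reads: 71.9% (SRSF2-KO, 467 values) and 75.1% (WT, 434 values) of values worth 1 to 3 reads lay within 0.1 of a whole number. Estimated reads used the median length of protein-coding transcripts, or of all transcripts where there are none, in M21 (another build), less 180 bases, and gave 19 to 46607 reads per measured member and library. Their 95% exact intervals cover counting error only. Sequence words of 31 bases and coding alignments used M21 transcripts, and promoters and gene order RefSeq GRCm38.p6. Python 3.11.15, numpy 2.4.6, pandas 2.3.3, scipy 1.17.1 and Biopython 1.88 were used. On simulated data, 94% of 200 genes given a 4-fold difference, among 11428 genes, came out at least 2-fold apart, and 100% of the 116 averaging at least 5 FPKM. The simulation held counting error only, with a single transcript length, no spread between animals and no shift in scaling. It therefore does not show how often such differences would repeat in other animals.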

Additional observations from a re-analysis of the deposited data

How the results depend on the processing

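Akr1c14 and Aldh1a1 kept their direction and stayed at least 2-fold lower under every pseudocount, filter and rescaling tried at the 2-fold limit, and Akr1c19 did so except after the TPM and equal-sum rescalings. With a limit of 3-fold 0 members were lower (0.945% of all rows), and with 1.5-fold 14 were lower and 2 higher (10.1% and 11.7% of all rows). Members at least 2-fold higher numbered 2 with a pseudocount of 0.1, 2 after TPM rescaling, 1 after equal sums outside the 50 highest rows and 1 with the median of rows at 5 FPKM set to 0, beside 9.27%, 10.8%, 8.27% and 6.77% of all rows. The member median was -0.33 without a filter (44 genes), -0.68 at 50 FPKM (an alternative chosen after seeing the data), and -0.16, -0.24 and -0.38 under those rescalings, which moved the libraries by 0.35, 0.29 and 0.15 log2 units. Rescaling turned 5, 4 and 3 of 33 members positive: Adh7, Akr1a1 and Aldh1b1 each time, Akr1e1 with TPM and equal sums, and Aox3 with TPM.

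Under TPM rescaling the medians were -0.42 (ADH), -0.24 (amino acid ALDH), 0.14 (AKR1A, AKR1E and AKR7), -0.51 (AKR1C), -0.53 (ethanol and acetate), 0.15 (retinoid), -0.14 (carbonyl reductase), -0.12 (molybdenum), 0.18 (folate) and -0.35 (amino acid neighbour), with 0.59 for AKR1B. Under equal sums the medians were -0.45 (ADH), -0.30 (amino acid ALDH), 0.082 (AKR1A, AKR1E and AKR7), -0.57 (AKR1C), -0.59 (ethanol and acetate), 0.088 (retinoid), -0.20 (carbonyl reductase), -0.18 (molybdenum), 0.11 (folate) and -0.41 (amino acid neighbour), with 0.38 for AKR1B. Under the median scaling the medians were -0.57 (ADH), -0.45 (amino acid ALDH), -0.046 (AKR1A, AKR1E and AKR7), -0.70 (AKR1C), -0.72 (ethanol and acetate), -0.027 (retinoid), -0.32 (carbonyl reductase), -0.32 (molybdenum), -0.0023 (folate) and -0.54 (amino acid neighbour). A pseudocount of 0.1 gave 0.38 and of 3 gave 0.11 for AKR1B, and 3 gave -0.53 for ADH. Without a filter the ADH median was -0.38 and the ethanol and acetate median -0.69, and at 5 FPKM the folate median was -0.26. These shifts follow from how each setting is built (the scaling, the pseudocount or the genes kept). Rescaling also changed which genes reached 1 FPKM. The amino acid ALDH list had 7 genes instead of 6 under TPM and equal sums, and AKR1B 4 instead of 3 under TPM. The folate list had 13 instead of 12 under all 3 rescalings. The added genes, Aldh18a1, Akr1b7 and Mthfd2, passed only through the SRSF2-KO-labelled library, so their inclusion depends on their higher values there. Summing rows of a symbol changed no member. Among the measured members, taking the longest transcript moved 1 interval to one side of equality, that of Aldh1b1, to 0.837 to 0.976. Among the members under 1 FPKM it moved those of Aldh1a3 (1.13 to 5.96), Aldh18a1 (1.29 to 3.24) and Akr1c18 (1.13 to 345) above equality. No paired analysis was possible because each genotype has 1 library, and none could be left out. Depth limits the members under 1 FPKM, most of which rest on fewer than 20 estimated reads.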
